A study of Mus musculus with 4 samples.

Results

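The immunoglobulin gene segments described here are the 20 genes, of 22180 with a named probe set, whose symbol on the array marks a variable (V), diversity, joining (J) or constant segment of the heavy chain (Igh), kappa light chain (Igk) or lambda light chain (Igl) locus. A probe set, the group of probes that gives 1 signal, was used where the array's annotation gave it exactly 1 symbol. The helicase gene Ighmbp2 and the surrogate light chain genes (Igll) were left out, and where a symbol had several probe sets the brightest over all arrays stood for it. The segments were 17 V segments, 1 J segment (Igkj1) and 2 constant segments (Ighm and Ighg3), and no diversity segment had a probe set with 1 symbol. By locus they were 5 heavy, 14 kappa and 1 lambda, out of 395 segments, pseudogenes included, that the same symbol pattern finds in the RefSeq gene table. They are thus a small sample of the repertoire, set by which probe sets carried a symbol.

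Lymph nodes, spleens and thymi of C57BL/6 mice were the source of the cells, which were sorted on B220 (CD45R), a protein on the surface of B lymphocytes, and their RNA was hybridised to Affymetrix arrays. The 4 groups were stimulated Tilcara cells, non-stimulated Tilcara cells, stimulated wild-type cells and non-stimulated wild-type cells, with 1 array each. Tilcara is labelled as a mutant model of PKCbeta, a kinase downstream of the B cell receptor, and its labels do not name the change it carries; wild-type cells had the same strain background. Stimulated cells received phorbol 12-myristate 13-acetate (PMA) at 10 ng/mL, which activates protein kinase C, with the calcium ionophore A23187 at 1 µM for 4 hours. Ages, sexes and the number of mice per array are not stated in the labels. Signals were log2 values after RMA, a background correction, normalization and probe summary, so a difference of 1 is 2-fold. The arrays had medians of 3.73 to 3.79, and across all probe sets Pearson's r was 0.981 between the stimulated arrays, 0.978 between the non-stimulated arrays and 0.916 to 0.927 between states. With no replicate in any group, a difference between arrays has no error and no test, and a p-value is given only where both genotypes were fitted together.

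An antibody has paired heavy and light chains. Each developing B cell joins V, (D) and J segments of its heavy and light chain loci, and the assembled V region is transcribed from the V segment's own promoter and spliced to a constant segment. A resting B cell displays the product as the B cell receptor, together with the signalling chains CD79A and CD79B; a plasma cell secretes it in bulk. The promoters of V segments and the enhancers of each locus bind lineage factors such as the OCT factors with their coactivator OBF-1, PU.1, E proteins and IRF4. A sorted population holds many B cells with different V segments, so the signal of a V segment is a mean over cells that do and do not use it. V segments also resemble their relatives in sequence, so RNA of a close relative may add to a probe set's signal, and each V symbol below is uncertain in that sense.

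Stimulated cells had lower signals than non-stimulated cells for each of the 20 segments, in both genotypes. The median log2 difference of the segments, stimulated minus non-stimulated, was −2.47 in Tilcara cells (range −4.03 to −0.57) and −2.72 in wild-type cells (range −4.12 to −0.06), while the median of all 12456 genes tested was 0.04 and 0.03. By size, 18 of 20 segments were at least 2-fold lower in Tilcara, where 14.3% of all genes were, and 17 of 20 in wild type, where 15.9% of all genes were. No segment was 2-fold higher, against 11.9% of genes in Tilcara and 13.4% in wild type. The mean signal over the segments was 5.96 in stimulated and 8.44 in non-stimulated Tilcara cells, and 5.63 in stimulated and 8.09 in non-stimulated wild-type cells.

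**Figure D1:**
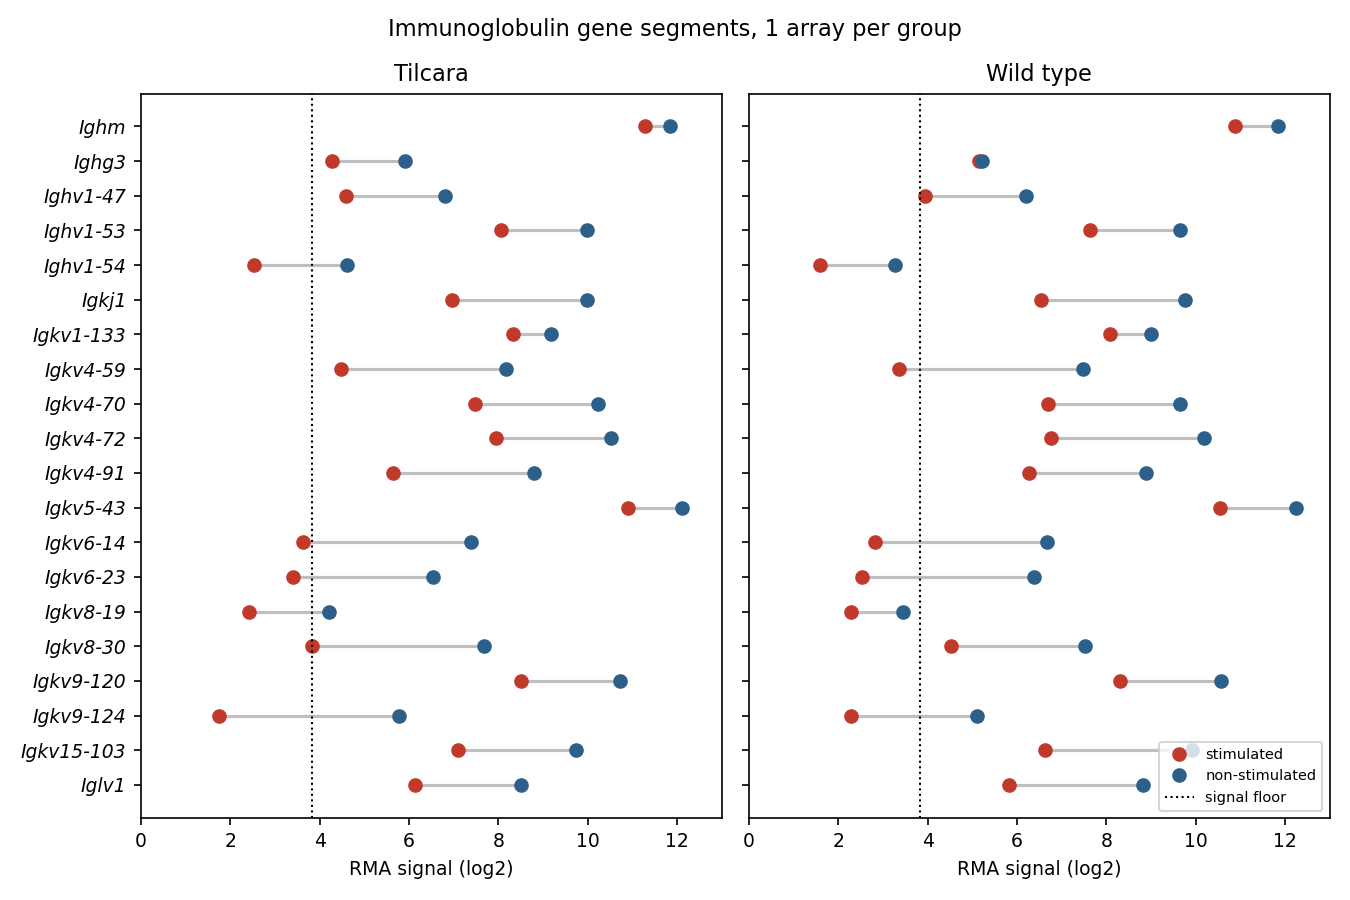
RMA signal (log2, horizontal axis) of each segment in the Tilcara arrays and in the wild-type arrays. Red points are stimulated and blue points non-stimulated cells, 1 array each, and the dotted line is the signal floor of 3.83; the red point lies left of the blue one in every row, and in wild-type Ighg3 the points nearly coincide.

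In a fit over all genes that used the Tilcara and wild-type arrays as a pair of samples per state, limma called 19 of the 20 segments as lower after stimulation and none as higher (Benjamini-Hochberg over 12456 genes, adjusted p under 0.05), where it called 22.8% of all genes lower and 22.0% higher. The exception was Ighg3, and 5 of the 19 had a lower stimulated signal that the filter fixed, as described below. With 1 residual degree of freedom per gene, such a p-value depends on how close the responses of the genotypes were to each other, and the labels do not say whether the arrays came from separate mice. In bulk RNA, fewer cells carrying a transcript and less of it per cell cannot be told apart.

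All 20 segments passed the filter, which asked for a signal of at least 3.83, the median of all named probe sets, in at least 1 array; this value is called the signal floor. Of the segments, 14 were above the floor in all arrays, and 12 of these were at least 2-fold lower after stimulation in Tilcara and 11 in wild type, with medians of −2.30 and −2.44. limma called 13 of these 14 lower. The other 6 had at least 1 array below it, all of them V segments, and their folds are approximate. For 5 of these, Ighv1-54, Igkv6-14, Igkv6-23, Igkv8-19 and Igkv9-124, both stimulated arrays lay below the floor, so they passed through non-stimulated arrays alone and their lower stimulated signal was fixed by the filter. Ighv1-54 and Igkv8-19 passed through the non-stimulated Tilcara array alone, so each was bound to be highest there. With every signal below the floor set at the floor, a setting chosen after seeing the data, 16 of 20 segments were at least 2-fold lower in Tilcara and 15 of 20 in wild type, with medians of −2.30 and −2.40, and Ighv1-54 and Igkv8-19 were level in wild type.

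Ighm, the constant region of IgM and the receptor class of naive B cells, had a signal of 11.28 in stimulated against 11.85 in non-stimulated Tilcara cells, and of 10.88 against 11.85 in wild-type cells. The stimulated arrays were lower in both genotypes, by less than 2-fold, and Ighm fell over both genotypes (limma, log2 change −0.77, SE 0.17, adjusted p = 0.0247). Ighg3, the constant region of IgG3, an antibody class that mouse B cells make above all in T cell-independent responses, had 4.27 in stimulated and 5.90 in non-stimulated Tilcara cells. In wild-type cells it had 5.15 in stimulated and 5.20 in non-stimulated cells. It was thus 3.10-fold lower in stimulated Tilcara and almost level in wild type, and the common change did not pass (limma, log2 change −0.84, SE 0.40, adjusted p = 0.157).

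Both constant segments had further probe sets, which disagreed with the brightest in size. Ighm had 7, and all 7 were lower after stimulation, with differences between −2.40 and −0.57 in Tilcara and between −3.22 and −0.97 in wild type. The brightest of them (17284349) moved least, and 6 of 7 were at least 2-fold lower in each genotype. The dimmest (17284503) had 4.96 in stimulated and 6.90 in non-stimulated Tilcara cells, and 3.26, below the floor, in stimulated and 6.49 in non-stimulated wild-type cells. The second Ighg3 probe set (17284614) was lower after stimulation in both genotypes, with 3.0 in stimulated and 5.26 in non-stimulated Tilcara cells and 2.84 in stimulated and 4.96 in non-stimulated wild-type cells. Both stimulated values of this probe set lie below the floor, and set at the floor its differences are −1.43 in Tilcara and −1.12 in wild type, so the near-level wild-type signal was seen with 1 of the 2 probe sets. The annotation gives no position within a gene, so it is not known here which part of a transcript each probe set reads, nor whether every one named Ighm reads the constant segment, and the reason for the disagreement was not tested.

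**Figure D2:**
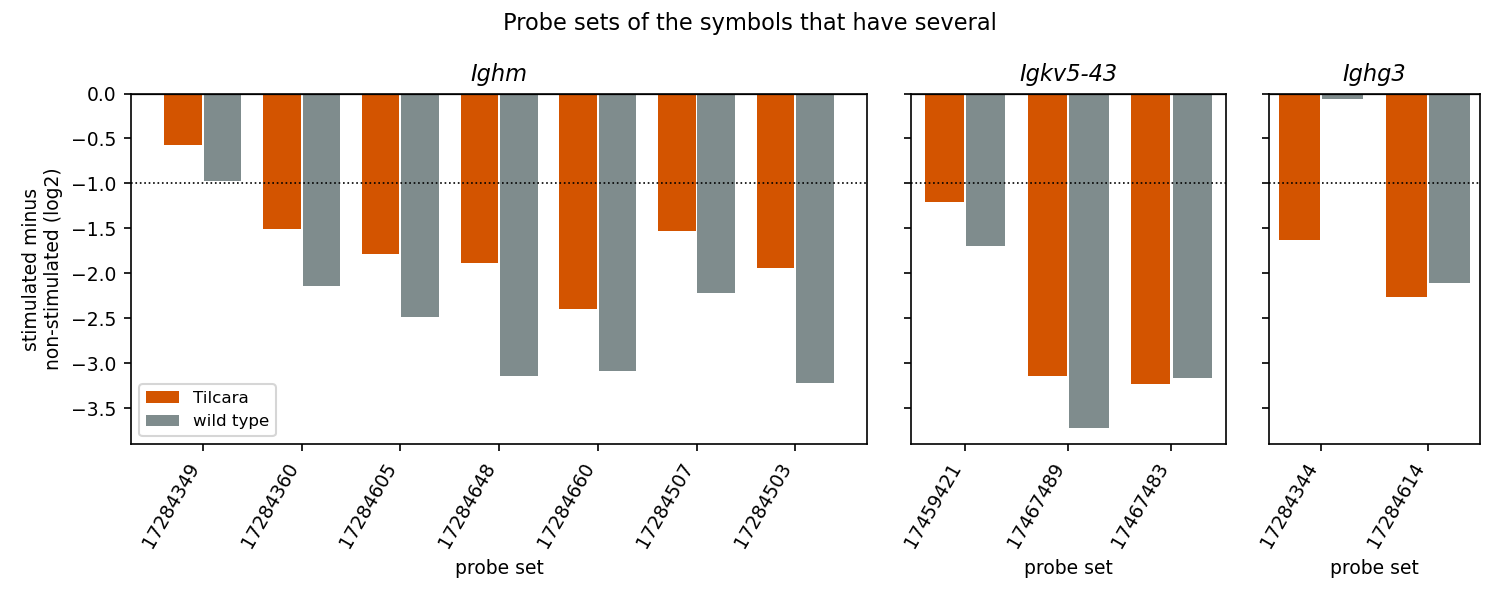
Log2 difference, stimulated minus non-stimulated (vertical axis), of each probe set of the 3 symbols with several, ordered from the highest to the lowest mean signal; orange bars are Tilcara, grey bars wild type, and the dotted line is 2-fold. All bars lie below 0, and the brightest Ighm and Igkv5-43 probe sets have the shortest bars of their symbols.

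Igkv5-43 showed the same spread among its 3 probe sets. Its brightest probe set (17459421) had 10.91 in stimulated and 12.11 in non-stimulated Tilcara cells, and 10.55 in stimulated and 12.24 in non-stimulated wild-type cells. The other two were lower still, with log2 differences of −3.14 and −3.23 in Tilcara and −3.72 and −3.17 in wild type. The non-stimulated signals of the brightest Ighm and Igkv5-43 probe sets lay close to the highest value of any probe set on the arrays, 12.77, and whether the upper end of the scale limits their differences was not tested. Over the 29 probe sets of the 20 segments, the non-stimulated signal and the difference had a Spearman's rho of 0.30 in Tilcara and −0.01 in wild type, given as a description of probe sets that share arrays and, in part, target sequence.

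The heavy chain V segments all belonged to the Ighv1 family, the large family also called J558. Ighv1-53 had 8.06 in stimulated and 9.98 in non-stimulated Tilcara cells, and 7.63 in stimulated and 9.65 in non-stimulated wild-type cells. Ighv1-47 had 4.58 in stimulated and 6.80 in non-stimulated Tilcara cells, and 3.95 in stimulated and 6.21 in non-stimulated wild-type cells. Both were about as much lower in Tilcara (−1.92 and −2.22) as in wild type (−2.02 and −2.26), and both fell over the genotypes (limma, log2 changes −1.97 with adjusted p = 0.00172 and −2.24 with adjusted p = 0.00146). Ighv1-54 read 2.54 in stimulated and 4.62 in non-stimulated Tilcara cells, and 1.58 in stimulated and 3.27 in non-stimulated wild-type cells, so it cleared the floor in 1 array only. Set at the floor, its difference is −0.79 in Tilcara and 0.0 in wild type, and the median of the 3 segments is −1.92 in Tilcara and −2.02 in wild type.

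The kappa chain is the light chain of most mouse B cells, and its segments had the lower median of the 2 larger loci. Over the 14 kappa segments the median difference was −2.90 in Tilcara and −2.98 in wild type, against −1.92 in Tilcara and −1.68 in wild type over the 5 heavy chain segments. The wild-type heavy chain median is the value of Ighv1-54, below the floor in both arrays. With signals set at the floor the medians are −2.67 in Tilcara and −2.72 in wild type for kappa. For the heavy chain they are −1.63 in Tilcara, the value of Ighg3, and −0.97 in wild type, the value of the brightest Ighm probe set. The heavy chain set holds the 2 constant segments and the kappa set none. Over V segments alone, as deposited, the medians were −2.77 in Tilcara and −2.97 in wild type for kappa (13 segments). They were −2.08 in Tilcara and −2.02 in wild type for the heavy chain (3 segments). As deposited, limma called all 14 kappa segments lower and 4 of the 5 heavy chain segments, where it called 22.8% of all genes lower. These calls include the 5 V segments whose lower stimulated signal the filter fixed. The loci were not tested against each other, because segments of 1 locus are not independent samples. Igkj1, the J segment nearest to the V segments and part of the kappa chain in cells that joined to it, had 6.96 in stimulated and 10.00 in non-stimulated Tilcara cells, and 6.55 in stimulated and 9.77 in non-stimulated wild-type cells. It fell by 3.13 on the log2 scale over both genotypes (limma, SE 0.15, adjusted p = 0.00109). The annotation gives no position, and another probe set carries Igkj1 together with Igkv4-53 and Igkv6-23. Whether the probe set used here reads the J segment itself is thus not known.

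**Figure D3:**
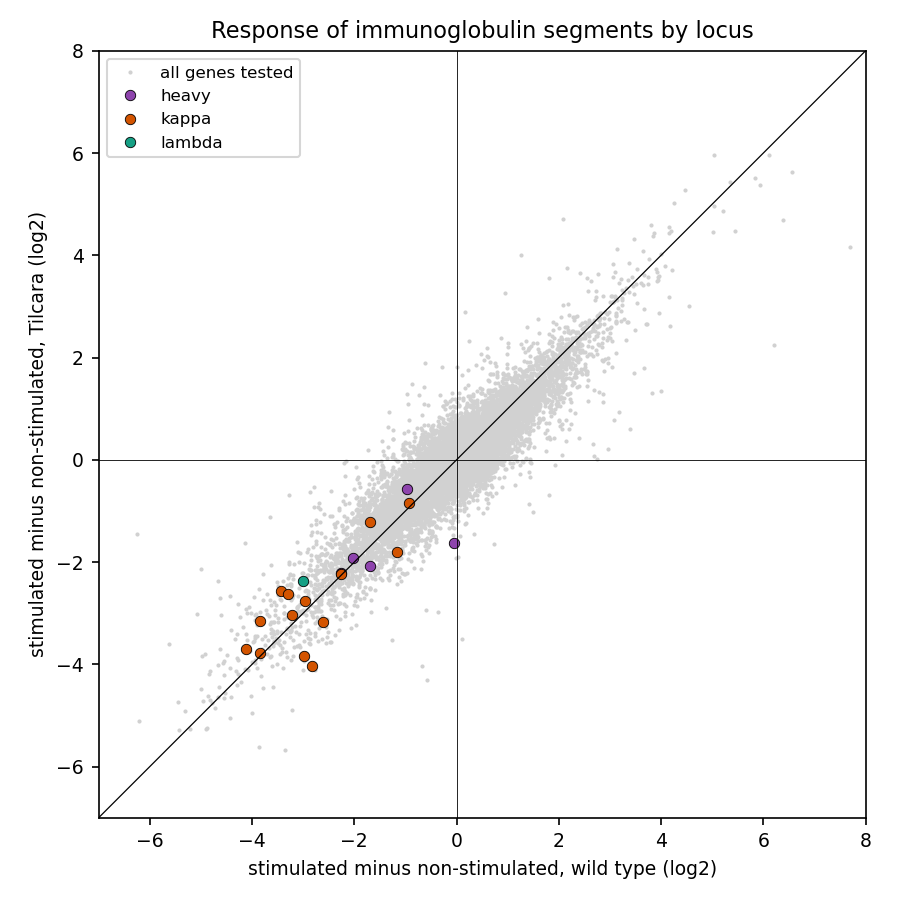
Log2 difference, stimulated minus non-stimulated, in wild type (horizontal axis) and Tilcara (vertical axis) for all genes tested (grey) and for the heavy chain (purple), kappa (orange) and lambda (green) segments; the line marks equal differences. All segments lie in the lower left quadrant, and Ighg3 is the purple point close to the vertical axis.

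Among the kappa V segments, 12 of 13 were at least 2-fold lower in each genotype, among them Igkv8-19, whose difference lies mostly below the floor. The Igkv4 family had 4 members here. Igkv4-59 had 4.49 in stimulated and 8.18 in non-stimulated Tilcara cells, and 3.36 in stimulated and 7.47 in non-stimulated wild-type cells, a 12.9-fold and a 17.3-fold lower signal. The stimulated wild-type value lies below the floor, and set at the floor the wild-type fold is 12.5. Igkv4-70 had 7.47 in stimulated and 10.24 in non-stimulated Tilcara cells, and 6.68 in stimulated and 9.65 in non-stimulated wild-type cells. Igkv4-72 had 7.96 in stimulated and 10.52 in non-stimulated Tilcara cells, and 6.77 in stimulated and 10.19 in non-stimulated wild-type cells. Igkv4-70 and Igkv4-72 were less reduced in Tilcara than in wild type, and Igkv4-59 was reduced about equally once set at the floor. Igkv4-91 was more reduced in Tilcara, with 5.64 in stimulated and 8.81 in non-stimulated Tilcara cells, and 6.28 in stimulated and 8.89 in non-stimulated wild-type cells. All 4 fell over both genotypes, with log2 changes between −3.90 and −2.87 (limma, adjusted p between 0.00109 and 0.00207).

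The Igkv6 and Igkv8 families had 2 members each. Igkv6-14 had 3.63 in stimulated and 7.39 in non-stimulated Tilcara cells, and 2.81 in stimulated and 6.66 in non-stimulated wild-type cells. Igkv6-23 had 3.39 in stimulated and 6.54 in non-stimulated Tilcara cells, and 2.53 in stimulated and 6.37 in non-stimulated wild-type cells. With the stimulated values set at the floor, Igkv6-14 was still 11.8-fold lower in Tilcara and 7.11-fold lower in wild type, and Igkv6-23 was 6.53-fold and 5.82-fold lower. Igkv8-30 had 3.84 in stimulated and 7.68 in non-stimulated Tilcara cells, and 4.53 in stimulated and 7.52 in non-stimulated wild-type cells, which is 14.3-fold and 7.95-fold lower. Igkv8-19 read 2.41 in stimulated and 4.21 in non-stimulated Tilcara cells and stayed below the floor in wild type, at 2.27 in stimulated and 3.44 in non-stimulated cells.

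The Igkv9 pair held the largest Tilcara difference and an average one. Igkv9-124 had 1.76 in stimulated and 5.78 in non-stimulated Tilcara cells, and 2.28 in stimulated and 5.11 in non-stimulated wild-type cells; its log2 difference was −4.03 in Tilcara and −2.82 in wild type, but −1.95 and −1.28 with the stimulated values set at the floor. Igkv9-120 had 8.51 in stimulated and 10.74 in non-stimulated Tilcara cells, and 8.31 in stimulated and 10.58 in non-stimulated wild-type cells. Its differences of −2.23 and −2.26 were nearly equal in the genotypes. Igkv15-103 had 7.11 in stimulated and 9.73 in non-stimulated Tilcara cells, and 6.62 in stimulated and 9.91 in non-stimulated wild-type cells, again a difference of over 6-fold in each genotype.

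Igkv1-133 was the V segment with the smallest difference, with signals taken as deposited. Set at the floor, Igkv8-19 (1.30-fold lower in Tilcara and level in wild type) and Ighv1-54 (1.73-fold lower and level) differed less. Igkv1-133 had 8.34 in stimulated and 9.17 in non-stimulated Tilcara cells, and 8.08 in stimulated and 9.01 in non-stimulated wild-type cells. As deposited, it was the 1 kappa segment under 2-fold in both genotypes (1.79-fold and 1.90-fold lower). It still fell over both (limma, log2 change −0.88, SE 0.15, adjusted p = 0.0105). In the order of genes in the RefSeq table it is the farthest of the 13 kappa V segments from the J segments, and Igkv6-14 is the nearest. With signals below the floor taken as they stand, the 6 nearest had a median difference of −3.42 in Tilcara and −3.42 in wild type, and the 7 farthest −2.62 and −2.82. Set at the floor, the wild-type difference among the nearest is −2.83 for Igkv6-14, −2.54 for Igkv6-23 and −3.64 for Igkv4-59, and Igkv8-19 is level. Among the farthest only Igkv9-124 changes, to −1.28. The gap between the parts thus rests partly on signals below the floor, and no effect of position is read from it. Within each part the segments varied widely, and rank from the J end and difference had a Spearman's rho of 0.19 in Tilcara and 0.38 in wild type over the 13 segments, which share arrays and sequence.

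The lambda locus was represented by Iglv1, the V segment of the main lambda chain of the mouse. It had 6.13 in stimulated and 8.51 in non-stimulated Tilcara cells, and 5.82 in stimulated and 8.82 in non-stimulated wild-type cells. Its differences of −2.38 and −3.00 lay within the range of the kappa segments, and it fell over both genotypes (limma, log2 change −2.69, SE 0.21, adjusted p = 0.00182). Set by class, the 17 V segments had a median of −2.56 in Tilcara and −2.82 in wild type. At least 2-fold lower were 16 of 17 in each (14 of 17 with signals set at the floor). limma called all 17 lower, among them the 5 whose lower stimulated signal the filter fixed. The 2 constant segments had differences of −0.57 and −1.63 in Tilcara and of −0.97 and −0.06 in wild type. With the other probe sets of Ighm and Ighg3 ranging down to −2.40 in Tilcara and −3.22 in wild type, the gap between V and constant segments depends on the probe set that stands for each constant segment.

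The genotypes differed by less than the states did. In stimulated cells, 16 of 20 segments had a higher signal in Tilcara than in wild type, where 51.8% of all genes did, and the median difference, Tilcara minus wild type, was 0.41 against 0.01 over all genes. Of the 16, 4 had both stimulated signals below the floor, and among the 14 segments above the floor in all arrays 11 were higher in Tilcara and 3 lower, with a median of 0.38. Igkv4-72 (2.29-fold) and Igkv4-59 (2.19-fold) were at least 2-fold higher in Tilcara, where 0.955% of all genes were, and no segment was 2-fold lower, where 0.747% of genes were. Igkv4-72 had 7.96 in stimulated Tilcara and 6.77 in stimulated wild-type cells. Igkv4-59 had 4.49 in stimulated Tilcara and 3.36, below the floor, in stimulated wild-type cells, and set at the floor its fold is 1.57. Lower in stimulated Tilcara were Ighg3 (−0.88), Igkv8-30 (−0.69) and Igkv4-91 (−0.64), while Igkv9-124 read lower with both stimulated signals below the floor, so no difference is given for it.

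All 7 Ighm probe sets were higher in stimulated Tilcara than in stimulated wild type, by 0.40 to 1.69 on the log2 scale, and 3 of them by at least 2-fold. The value of 1.69 belongs to the dimmest probe set, and with its stimulated wild-type signal set at the floor it is 1.13. In non-stimulated cells the same probe sets lay between −0.03 and 0.59, with 4 of 7 higher in Tilcara. As these probe sets share 1 symbol and the same arrays, they are not separate measurements of a genotype effect.

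**Figure D4:**
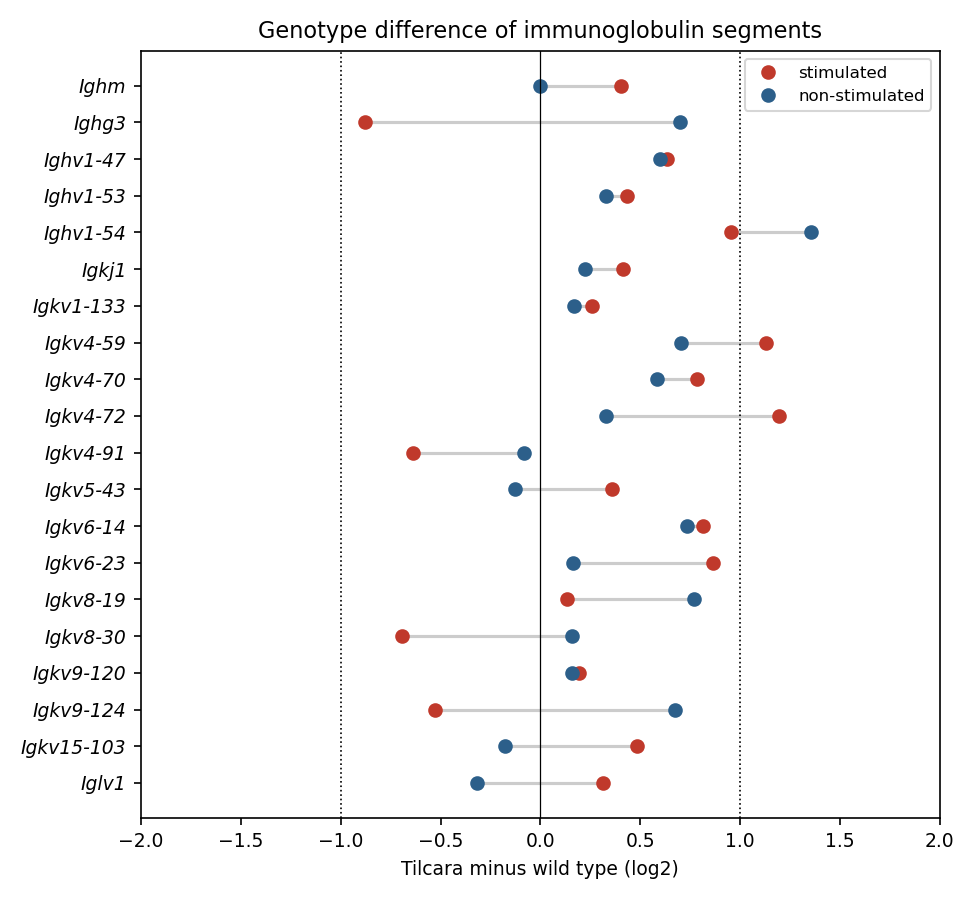
Log2 difference, Tilcara minus wild type (horizontal axis), of each segment in stimulated (red) and non-stimulated (blue) cells; dotted lines mark 2-fold. In stimulated cells 16 of 20 points lie right of 0, and in non-stimulated cells 15 of 20.

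Without stimulation, 15 of 20 segments were higher in Tilcara than in wild type, against 52.2% of all genes, with a median of 0.28 against 0.02. This count includes Ighv1-54 and Igkv8-19, whose direction the filter fixed; among the 14 segments above the floor in all arrays, 9 were higher in Tilcara and 5 lower, with a median of 0.16. Ighv1-54 was the 1 segment at least 2-fold higher (2.56-fold, with 4.62 in Tilcara and 3.27, below the floor, in wild type; 1.73-fold with wild type set at the floor), where 0.425% of all genes were, and none was 2-fold lower, where 0.658% of genes were. Bright segments such as Ighm (11.85 in both genotypes) and Igkv9-120 (10.74 in Tilcara and 10.58 in wild type) were close to level. No segment was called for genotype by limma (adjusted p at least 0.866), which called 0.0% of all genes in either direction; 6 segments and 667 of all genes had an unadjusted p under 0.05.

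The difference between the responses, Tilcara minus wild type, had a median of 0.10 over the segments, with 14 of 20 less reduced in Tilcara. Of these, Igkv4-59, Igkv6-14 and Igkv6-23 were more reduced in Tilcara with signals set at the floor, where the count was 11 of 20 and the median 0.04. At 2-fold, 2 segments were more reduced in Tilcara, Ighg3 (−1.57) and Igkv9-124 (−1.20), where 1.65% of all genes passed, and none was less reduced, where 2.32% of genes passed. Igkv9-124 was below the floor in both stimulated arrays, and set at the floor its value is −0.67. The second Ighg3 probe set gave −0.15, or −0.31 set at the floor. With each of these comparisons sharing arrays with the others, their directions are not independent of each other, and the design has no replicates to test this difference.

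Genes that act with the segments were grouped by role. Of the antigen receptor partners, which carry or relay the signal of surface immunoglobulin, 8 of 12 were measured. All 8 were at least 2-fold lower in each genotype, where 14.3% of all genes were in Tilcara and 15.9% in wild type. All 8 fell in limma's fit, where 22.8% of all genes fell. Their median difference was −2.54 in Tilcara and −3.26 in wild type. Cd79b had 8.57 in stimulated and 11.23 in non-stimulated Tilcara cells, and 6.96 in stimulated and 11.39 in non-stimulated wild-type cells. Cd79a had 8.49 in stimulated and 10.95 in non-stimulated Tilcara cells, and 7.69 in stimulated and 11.00 in non-stimulated wild-type cells. Both signalling chains were higher in stimulated Tilcara than in stimulated wild type, by 1.61 for Cd79b and 0.81 for Cd79a on the log2 scale. Over the 8 partners 4 were higher there and 4 lower, with a median of −0.12, and Cd81 (−0.94) and Blnk (−0.63) were the furthest below wild type. The coreceptor gene Cd22 had log2 differences of −4.76 in Tilcara and −4.78 in wild type, and the kinase genes Syk (−3.97 in Tilcara and −3.95 in wild type) and Btk (−2.64 in Tilcara and −3.20 in wild type) were lower as well.

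Factors of immunoglobulin promoters and enhancers went both ways. Of 24 measured, 12 fell, 3 rose and 9 were not called by limma, where 22.8% of all genes fell and 22.0% rose. Spib (−3.86 in Tilcara and −3.32 in wild type), Ets1 (−3.79 in Tilcara and −3.45 in wild type), Pax5 (−3.11 in Tilcara and −3.15 in wild type) and Id3 (−2.22 in Tilcara and −3.00 in wild type) fell. Irf4, a factor of light chain enhancers and plasma cells, rose (limma, log2 change 2.08, adjusted p = 0.0016), as did its relative Irf8 (1.23, adjusted p = 0.00485) and the NF-kB subunit gene Rel (0.93, adjusted p = 0.00914). Pou2af1, which encodes OBF-1, had 9.14 in stimulated and 9.84 in non-stimulated Tilcara cells and 9.25 in stimulated and 9.58 in non-stimulated wild-type cells, and did not pass (limma, adjusted p = 0.0703). Its partner Pou2f2, for OCT2, fell by 0.77 on the log2 scale (limma, adjusted p = 0.0275). Mef2c (2.48) and Ikzf3 (1.02), both B lineage regulators, and Id3 (1.09), an inhibitor of E proteins, were at least 2-fold higher in stimulated Tilcara than in stimulated wild type, and Id2 (−1.82), another inhibitor, was lower. After stimulation Mef2c differed by −1.11 in Tilcara and −3.65 in wild type, and fell in limma's fit. Id2 differed by 0.61 in Tilcara and 3.40 in wild type, and was not called.

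**Figure D5:**
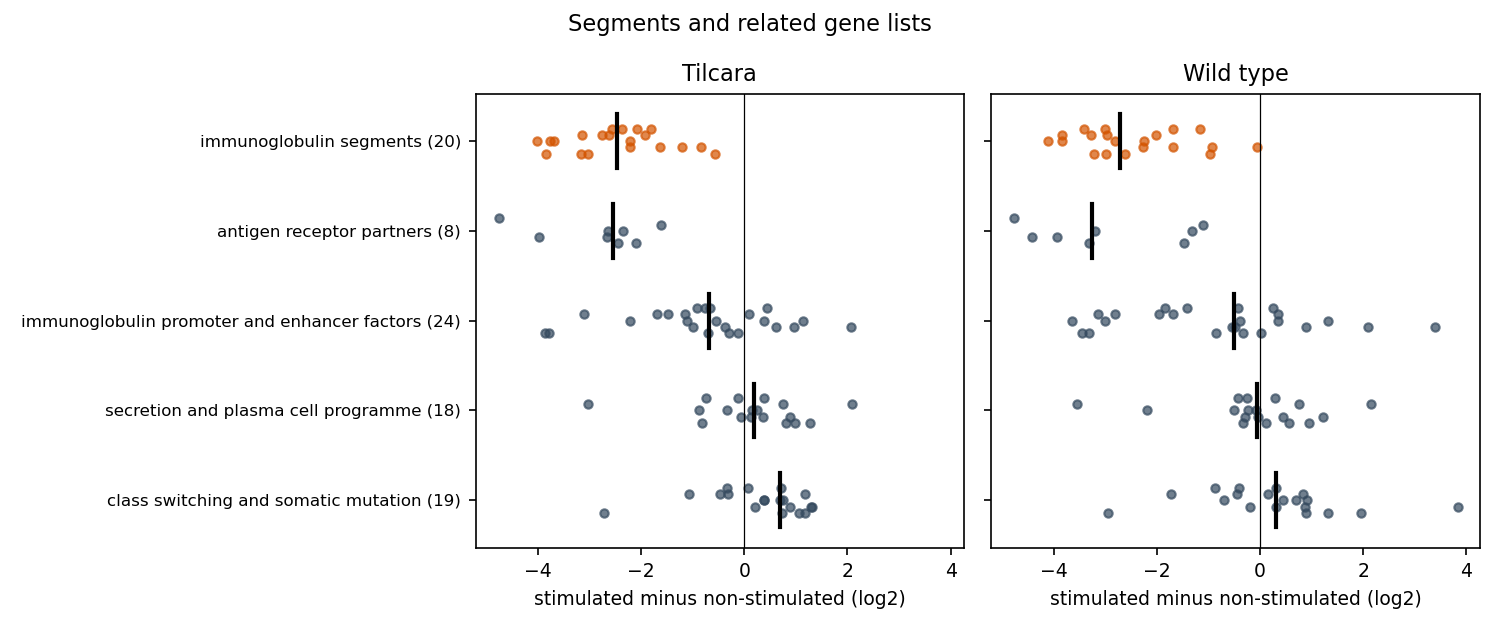
Log2 difference, stimulated minus non-stimulated (horizontal axis), of the immunoglobulin segments (orange) and of the measured genes of 4 lists (dark points; numbers of genes in brackets) in Tilcara and wild type; black bars are medians. The segments and the antigen receptor partners lie left of 0 throughout, and the other lists spread to both sides.

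Genes of antibody secretion showed no common direction. Of 18 measured, 5 rose, 3 fell and 10 were not called, shares close to the 22.0% and 22.8% of all genes that rose and fell, with medians of 0.20 in Tilcara and −0.06 in wild type. Prdm1, the regulator of plasma cell differentiation, had 5.19 in stimulated and 3.93 in non-stimulated Tilcara cells and 4.80 in stimulated and 4.24 in non-stimulated wild-type cells, and rose (limma, log2 change 0.92, adjusted p = 0.0297). Xbp1, which expands the secretory apparatus, was level, with 6.29 in stimulated and 6.35 in non-stimulated Tilcara cells and 6.25 in stimulated and 6.30 in non-stimulated wild-type cells. Mzb1, a chaperone cofactor of IgM assembly, fell (limma, log2 change −3.29, adjusted p = 0.00132), and Slamf7 rose by 2.12. Jchain, which joins IgM and IgA into polymers, was below the floor in both Tilcara arrays (3.44 stimulated, 3.78 non-stimulated) and had 4.44 in stimulated and 4.95 in non-stimulated wild-type cells.

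Of the class switching and somatic mutation genes, 19 were measured, of which 8 rose and 2 fell, beside 22.0% and 22.8% of all genes; medians were 0.70 in Tilcara and 0.31 in wild type. Batf, a factor needed for switching, had 6.94 in stimulated and 5.63 in non-stimulated Tilcara cells and 9.72 in stimulated and 5.89 in non-stimulated wild-type cells. Ung, the glycosylase that acts on deaminated cytosines, rose (limma, log2 change 1.25, adjusted p = 0.00455), and Prkdc of the end-joining machinery fell by 2.84. Both stimulated signals of Prkdc were 3.70, below the floor, so its direction was fixed by the filter and its size is approximate. Of the recombination and pre-B cell receptor genes, 3 were measured, and Vpreb3 (−3.75 in Tilcara and −3.87 in wild type) was the 1 that fell.

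Markers of other cells were measured beside the segments, and their part in the results was not tested. B cell markers, several of which are also receptor partners, were lower after stimulation in 9 of 9 measured genes in each genotype. Of all genes, 47.4% were lower in Tilcara and 48.2% in wild type. limma called 7 of the 9 lower, where it called 22.8% of all genes lower. The mean signal of these markers was 7.76 in stimulated and 10.12 in non-stimulated Tilcara cells, and 7.64 in stimulated and 10.17 in non-stimulated wild-type cells. Plasma cell markers (8 measured) had mean signals of 5.43 and 5.80 in stimulated and non-stimulated Tilcara cells and of 5.49 and 6.10 in stimulated and non-stimulated wild-type cells. Of these, 7 of 8 were lower in non-stimulated Tilcara than in non-stimulated wild type, where 47.6% of all genes were lower. T cell markers (8 measured) had means of 3.37 and 3.60 in stimulated and non-stimulated Tilcara cells and of 3.57 and 4.25 in stimulated and non-stimulated wild-type cells, and neutrophil and macrophage markers (9 measured) had means of 3.44 and 3.95 in stimulated and non-stimulated Tilcara cells and of 3.68 and 5.36 in stimulated and non-stimulated wild-type cells. Of the T cell markers, 7 and 6 of 8 lay below the floor in stimulated and non-stimulated Tilcara cells, and 5 and 2 of 8 in stimulated and non-stimulated wild-type cells. The T cell list and the neutrophil and macrophage list were lower in non-stimulated Tilcara than in non-stimulated wild type, in 7 of 8 and 8 of 9 genes, beside 47.6% of all genes. Some of them, such as S100a8, Lyz2 and Cd3g, passed the filter through the non-stimulated wild-type array alone and were bound to be lower in Tilcara. The neutrophil and macrophage genes differed widely in size, with a median of −0.30 for non-stimulated Tilcara minus wild type. S100a8 differed by −5.19, the lowest value of all 12456 genes, S100a9 by −3.52 and Lyz2 by −2.56. Mpo was the 1 gene of the list that was higher in Tilcara, by 0.24. The Tilcara signals of S100a8 and Lyz2 lay below the floor, so their sizes are approximate. B-1 and marginal zone markers (13 measured) were lower in non-stimulated Tilcara in 10 of 13 genes, and of the plasmacytoid dendritic cell markers (7 measured) 4 were higher there and 3 lower.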

How the data were processed

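One array per group was analysed. The authors deposited log2 signals of 41345 probe sets made with RMA, per the submitters' processing notes; these name no software, version or build. By the platform annotation 23521 probe sets had 1 symbol, 1814 several and 16010 none, and all 20 segments were found in the RefSeq gene table by gene ID. No genome build was named, so positions are not given. Depth does not apply to arrays, and 1 array per group limits the precision.

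The brightest probe set stood for a symbol. Genes were tested where at least 1 array reached 3.83, the median of all values of probe sets with 1 symbol, which left 12456 genes. Differences were counted at 1 (log2). limma 3.58.1 in R 4.3.3 fitted an additive model of state and genotype to the 4 arrays (Benjamini-Hochberg, threshold 0.05) and was tested on simulated data. Rose and fell mark its calls. Alternatives were array centring, cyclic loess, the mean over probe sets, no filter, a filter 1 unit stricter, a trended prior variance and, added after seeing the data, the dimmest probe set and signals below the floor set at the floor. Named genes followed a rule: all constant and J segments, the 6 V segments with the largest differences in each direction, and up to 4 genes per list and comparison; further V segments and list genes were named after their values were seen. Segments and lists were chosen with earlier results of these data known.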

Additional observations from a re-analysis of the deposited data

Results flagged for a closer look

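For 7 segments the genotype difference had opposite signs in stimulated and non-stimulated cells, in 1 array each, so the difference between the responses, Tilcara minus wild type, was not tested. It was −1.57 for Ighg3, −1.20 for Igkv9-124 and −0.85 for Igkv8-30, which were higher in Tilcara without stimulation and lower with it. Both stimulated signals of Igkv9-124 lay below the signal floor. Set at the floor they are level, so no opposite sign remains, and its value is −0.67. The second Ighg3 probe set was higher in Tilcara by 0.31 without stimulation and by 0.16 with it, where both its signals lay below the floor. The difference between the responses was 0.66 for Igkv15-103, 0.63 for Iglv1, 0.49 for Igkv5-43 and 0.41 for Ighm, which were lower in Tilcara without stimulation and higher with it, although non-stimulated Ighm was level to 2 decimals. The signs depend on the probe set: 1 of the 3 for Igkv5-43 was higher in Tilcara in both states (0.24 without and 0.17 with stimulation). Of the 7 for Ighm, 4 were higher in Tilcara without stimulation.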

How the results depend on the processing

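Beyond the fit of both genotypes together, no paired analysis was possible because each group is 1 array. Across the 6 other settings and 2 chosen after seeing the data, the dimmest probe set and signals below 3.83 set at that floor, between 16 and 19 segments were at least 2-fold lower after stimulation in Tilcara, between 15 and 19 in wild type, and limma, not refitted to signals set at the floor, called between 17 and 20 lower; the stricter filter left 18 segments, which accounts for its lower counts. Every segment stayed lower after stimulation in both genotypes under each of them, except that Ighv1-54 and Igkv8-19 were level in wild type with signals set at the floor. In stimulated cells 2 to 3 segments were at least 2-fold higher in Tilcara, but 1 with signals set at the floor. In non-stimulated cells the count was 1, but 0 with the stricter filter, which removes Ighv1-54, and 0 with signals set at the floor. Segments at least 2-fold more reduced in Tilcara numbered 1 with the mean over probe sets and 1 with the dimmest probe set, where Ighg3 no longer passed, and 1 with signals set at the floor, where Igkv9-124 no longer passed. With the dimmest probe set 1 segment, Ighm, was 2-fold less reduced in Tilcara, but its stimulated wild-type signal lay below the floor, and set there the difference is 0.72. Segments higher in non-stimulated Tilcara numbered 15, with 16 under centring, 15 under cyclic loess, 17 with the mean over probe sets and 17 with the dimmest probe set; those less reduced in Tilcara numbered 14, with 12 under centring, 13 under cyclic loess and 11 with signals set at the floor. Of 828 values of single segments, 35 moved by at least 0.5 and none changed sign from a difference of at least 1; these and 2 limma calls of Ighg3 that were gained concerned 8 segments, the 3 with several probe sets and the 5 with both stimulated signals below the floor. Signals below 3.83 limit the folds of 6 segments.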

Other observations

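A further 5 probe sets carried several symbols, at least 1 of them an immunoglobulin segment, and were not used because no single segment could be named. They were bright, with signals of 10.18 to 12.33 in non-stimulated Tilcara cells and 10.18 to 12.34 in non-stimulated wild-type cells. All 5 were lower after stimulation, by a median of 1.15 in Tilcara and 1.60 in wild type on the log2 scale (ranges −1.64 to −0.66 and −2.22 to −0.70). In stimulated cells all 5 were higher in Tilcara than in wild type, by 0.11 to 0.57, and without stimulation they lay between −0.01 and 0.10.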
